A study of Mus musculus with 2 samples.

Results

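Sost, Dkk3, Frzb, Sfrp1, Sfrp2, Rspo1, Rspo3 and Wnt5a are 8 of the 27998 genes counted, and all encode secreted proteins that act on Wnt signalling. Sost, Dkk3, Frzb, Sfrp1 and Sfrp2 are counted among its antagonists, Rspo1 and Rspo3 enhance it, and Wnt5a is itself a ligand. The rows of these genes were read in both count tables by endothelial subtype, fibroblast subtype and library. The genes were selected on their UMI counts in these same libraries, with earlier results known, so every level and ratio below is a description.

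RNA of single cells freed from the inner surface of the aorta was counted in 1 old mouse (18 months) and 1 young mouse (8 weeks), both C57BL6/J. Single cells were caught in droplets, and a unique molecular identifier (UMI) was attached to the 3′ end of each transcript. The adventitia had been dissected away before the endothelium was freed with trypsin and a small blade. Each age is 1 animal and 1 library, so no difference between the ages has a replicate check and no test was made.

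Wnt ligands bind Frizzled receptors, and the canonical branch also needs the co-receptors Lrp5 and Lrp6 to keep beta-catenin from being degraded. Sclerostin, encoded by Sost, binds those co-receptors, whereas secreted frizzled-related proteins bind the ligands themselves. R-spondins work on the receptor side, where with Lgr receptors they remove the ubiquitin ligases Znrf3 and Rnf43 and so leave more Frizzled at the cell surface. In vessels, Frizzled4 signalling through Lrp5 is known from the retina.

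The old library held 3408 barcodes with 19171045 UMIs, and the young library held 1366 barcodes with 12576023 UMIs. Median depth was 4737 UMIs per barcode in old and 7558.5 in young, and 11 barcode sequences occurred in both. Endothelial-like cells, in which all 12 endothelial markers were detected, numbered 2418 in old and 1084 in young. They fell into a Coch/Adra2a subtype of 467 old and 453 young cells and a Bcan/Isl1 subtype of 1951 old and 631 young cells. Different clusters held the 2 ages within each: cluster 0 was mostly old and cluster 2 mostly young in the Coch/Adra2a subtype, and clusters 1 and 5 were mostly old and cluster 3 mostly young in the Bcan/Isl1 subtype. Fibroblast-like cells numbered 572 in old and 239 in young, made up of Gdf10/Mfap4 cells (83 old, 102 young) and Dact2/Igfbp5 cells (489 old, 137 young). For each group and library the UMIs of all its cells were added up and scaled to the total of that group (counts per 1000000, CPM). Brackets give exact 95% intervals, which cover counting error only and not the spread between animals. Sost and Frzb were also listed as subtype markers and were left out when subtypes were assigned, but clustering used all variable genes, so levels between subtypes describe the clusters.

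In endothelial-like cells of the old library Rspo1 was higher, and Sost, Sfrp2 and Rspo3 were lower, than in the young library by more than 2-fold. Among fibroblast-like cells Wnt5a was lower in old by more than 2-fold, and Frzb was higher, from 35 UMIs in old and 10 in young, at an old level below that of old macrophage-like cells. Of the 8 genes, 7 reached 20 UMIs over both libraries in endothelial-like cells, where 1 was higher and 3 were lower past 2-fold in old. Among all 12045 genes that reached 20 UMIs there, 7.08% passed 2-fold, 3.82% higher and 3.26% lower. In fibroblast-like cells 7 reached 20 UMIs, of which 1 was higher and 1 lower past 2-fold, beside 8.56% of 10185 genes, 3.57% higher and 4.99% lower. The 7 genes had a median log2 ratio (old over young, here and throughout) of -0.22 in endothelial-like cells, where all genes had 0.07, and of -0.43 in fibroblast-like cells, where all genes had -0.10. Wnt5a in endothelial-like cells and Rspo3 in fibroblast-like cells fell short of 20 UMIs. Since the genes were picked knowing these libraries, nothing is read from the distance to the background.

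**Figure D1:**
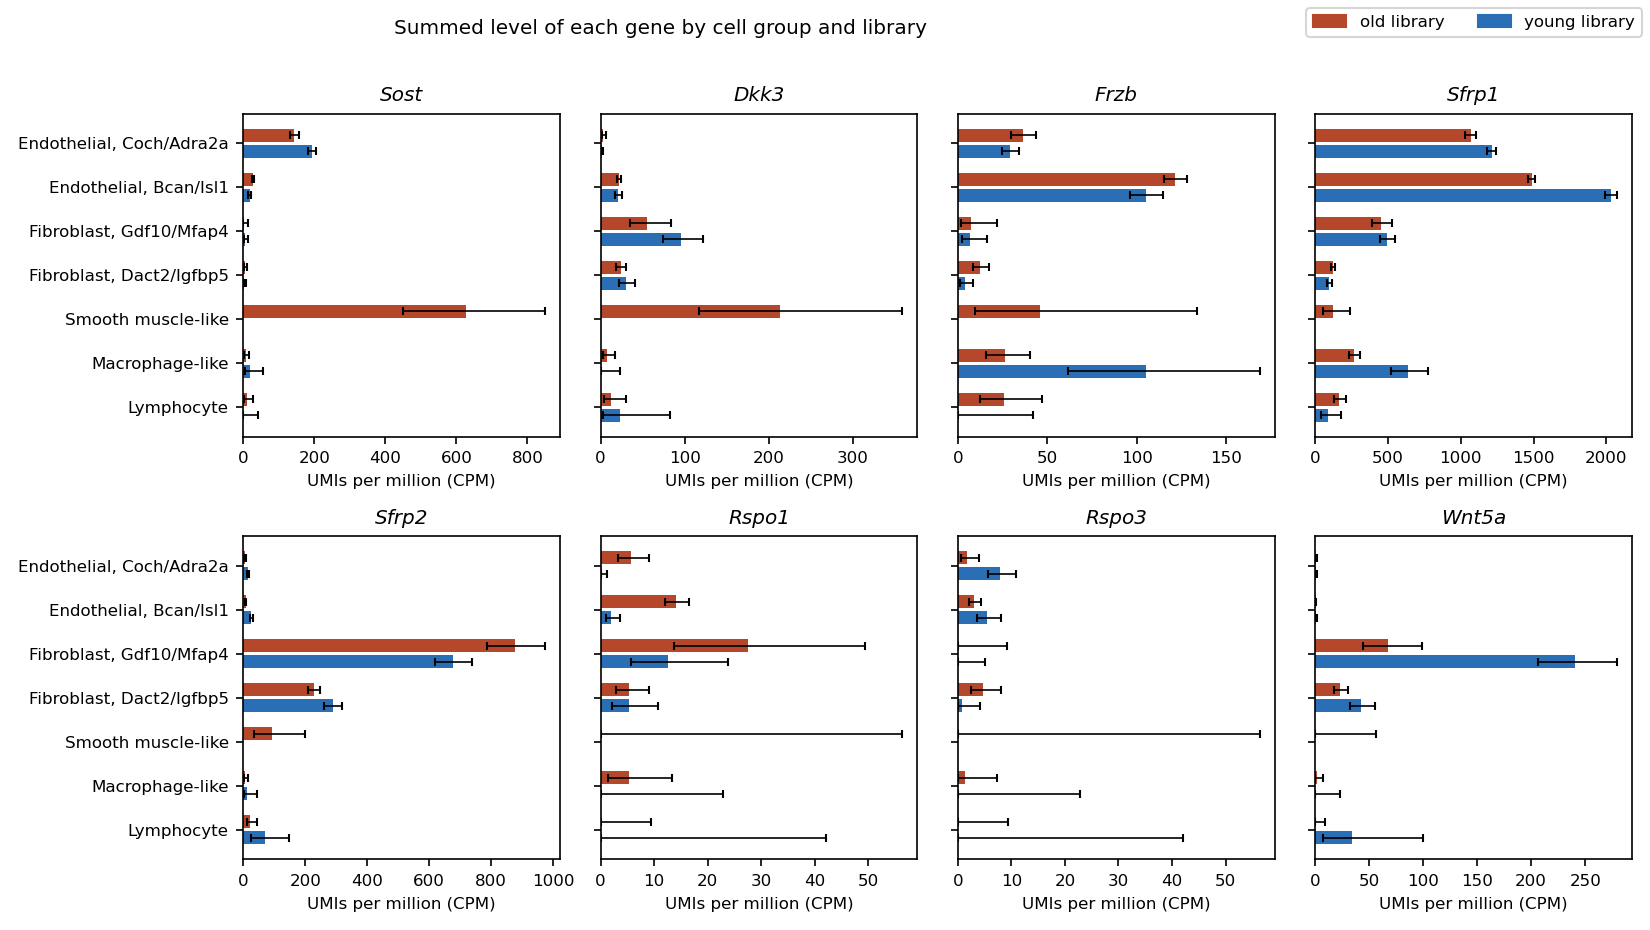
Summed level of each of the 8 genes, in CPM (x axis, a different scale for each gene), by cell group (y axis) in the old library (red) and the young library (blue). Bars are levels and lines are exact 95% Poisson intervals for counting error; the lymphocyte group carries T, NK and B cell markers, and no young cell was smooth muscle-like. Sost lies highest in the 11 old smooth muscle-like cells and next in the Coch/Adra2a subtype, Frzb in the old Bcan/Isl1 subtype among old groups, and Sfrp2 and Wnt5a in Gdf10/Mfap4 fibroblasts.

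Sost (chromosome 11, 101962458 to 101967015, minus strand, GRCm38) encodes sclerostin, which is best known as a product of osteocytes that restrains bone formation. Endothelial-like cells gave 738 Sost UMIs in old, a level of 51.0 CPM [47.4 to 54.8], and 1059 UMIs in young, a level of 105 CPM [98.6 to 111]. The intervals did not overlap, and the log2 ratio of old over young was -1.04 [-1.18 to -0.90]. Within the Coch/Adra2a subtype, Sost stood at 143 CPM [130 to 157] in old and 193 CPM [181 to 206] in young, a log2 ratio of -0.43 [-0.60 to -0.27]. In the Bcan/Isl1 subtype the order was the opposite, with 26.7 CPM [23.8 to 29.8] in old and 17.5 CPM [14.1 to 21.6] in young, a log2 ratio of 0.61 [0.26 to 0.96]. The endothelial-like total was lower in old by more than either subtype was. With stricter cell filters the Bcan/Isl1 ratio was 0.14, and that of Coch/Adra2a cells was -0.61.

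The Coch/Adra2a subtype carried most of the gene's UMIs in both libraries, 53.8% of 805 in old and 90.2% of 1075 in young. Coch/Adra2a cells exceeded Bcan/Isl1 cells 5.37-fold in old and 11.02-fold in young. At an equal depth of 3100 UMIs per cell, Sost was seen in 32.7% [28.1 to 37.7] of 385 old and 38.9% [34.2 to 43.7] of 427 young Coch/Adra2a cells. The same share was 7.07% of old and 5.94% of young Bcan/Isl1 cells, and the intervals of the ages overlapped in each subtype. With stricter cell filters the Coch/Adra2a shares were 28.9% [24.8 to 33.2] in old and 39.3% [34.6 to 44.2] in young, and those intervals did not overlap. Macrophage-like cells, which served as the level of a class not expected to make these proteins, showed Sost in 3.64% [1.00 to 9.05] of 110 old cells and in 1 of 13 young cells. Endothelial markers in macrophage-like cells summed to 1734 CPM in old and 2972 CPM in young. The part of endothelial RNA in their levels was not tested, here and below. Shares without thinning were 50.3% of old and 66.2% of young Coch/Adra2a cells, at median depths of 5687 and 9003 UMIs per cell.

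Bone cell markers were nearly absent beside this signal. Of 5 osteoblast and osteocyte markers, 1 had a single UMI in endothelial-like cells of each library, and Bglap, Dmp1, Mepe and Ibsp stood at 0 in both. Smooth muscle is a second known source of Sost in the aorta. The 11 old smooth muscle-like cells held 41 Sost UMIs in 10 cells, 627 CPM [450 to 850], beside 2812 CPM of the smooth muscle myosin Myh11. Smooth muscle markers summed to 408 CPM over 8 detected genes in old endothelial-like cells and to 344 CPM over 5 genes in young. In the young cells of the mostly young Coch/Adra2a cluster, 950 Sost UMIs stood beside 0 UMIs of Myh11 and 0 of Cnn1, a smooth muscle calponin, but also beside 794 of Acta2, a smooth muscle actin (166 CPM), and 587 of Tagln, a smooth muscle actin-binding protein (123 CPM). The old cells of its mostly old counterpart had 433 Sost UMIs beside 10 of Myh11, 5 of Cnn1, 592 of Acta2 (196 CPM) and 379 of Tagln (126 CPM). The part of smooth muscle RNA in the Sost level was not tested. Fibroblast-like cells were low, at 5.32 CPM in old and 3.89 CPM in young, a level within the interval of old macrophage-like cells (7.83 CPM [2.88 to 17.1]).

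Dkk3 (chromosome 7, 112116017 to 112159057, minus strand) is a divergent Dickkopf family member whose effect on Wnt signalling depends on the cell type. In endothelial-like cells it stood at 17.8 CPM [15.7 to 20.2] in old and 11.3 CPM [9.31 to 13.6] in young, a log2 ratio of 0.66 [0.34 to 0.99]. Fibroblast-like cells had the opposite order, with 28.0 CPM [22.3 to 34.6] in old and 53.0 CPM [43.5 to 63.9] in young, a log2 ratio of -0.92 [-1.35 to -0.50]. The intervals of the ages did not overlap in either class, and the difference between the classes was not tested. Within the Bcan/Isl1 subtype the levels lay together, at 21.7 CPM in old and 20.7 CPM in young, a log2 ratio of 0.07 [-0.27 to 0.41]. Coch/Adra2a cells held 10 old and 9 young UMIs, which is too few for a ratio here. Dkk3 was 6.56-fold higher in Bcan/Isl1 than in Coch/Adra2a cells of old and 11.5-fold higher in young.

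Gdf10/Mfap4 fibroblasts had the higher Dkk3 level of the fibroblast subtypes, 55.1 CPM [34.6 to 83.5] in old and 96.0 CPM [74.7 to 122] in young. Their log2 ratio of old over young was -0.80 [-1.56 to -0.09], and it became 0.57 when clusters were cut more finely, at Leiden resolution 1.0. Dact2/Igfbp5 fibroblasts had 23.8 CPM in old and 29.9 CPM in young, a log2 ratio of -0.33 whose interval held 0. Smooth muscle-like cells of old held 14 Dkk3 UMIs, 214 CPM [117 to 359], again in 10 of 11 cells.

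Frzb (chromosome 2, 80411970 to 80447625, minus strand) encodes a secreted frizzled-related protein that binds Wnt ligands and was first known from cartilage. Endothelial-like cells held 1501 UMIs in old, 104 CPM [98.6 to 109], and 682 UMIs in young, 67.5 CPM [62.5 to 72.8]. The old level was higher, with a log2 ratio of 0.62 [0.49 to 0.75]. Most of the UMIs lay in the Bcan/Isl1 subtype, 88.7% in old and 75.4% in young. In that subtype the level was 122 CPM [115 to 128] in old and 105 CPM [96.6 to 115] in young, a log2 ratio of 0.21 [0.06 to 0.35]. In Coch/Adra2a cells it was 36.4 CPM in old and 29.3 CPM in young, a log2 ratio of 0.31 whose interval held 0 [-0.06 to 0.68]. With stricter cell filters the Coch/Adra2a ratio was 0.65 [0.31 to 0.99].

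Frzb was uneven among old Bcan/Isl1 cells, and 1 cluster of 429 old and 14 young cells had a high level. In its old cells Frzb stood at 196 CPM [182 to 212], against 88.6 CPM [82.2 to 95.4] in the larger old Bcan/Isl1 cluster of 1492 cells. It was also the richest endothelial-like cluster in Acta2, with 622 CPM against 64.2 CPM in the larger cluster, and Myh11 stood at 13.0 CPM in it against 2.88 CPM. Frzb was among its 10 leading genes, so the level partly defines the cluster. With clusters made without the 8 genes and other Wnt pathway genes, the corresponding levels were 197 and 86.5 CPM. Without this cluster, an alternative added after seeing the data, the log2 ratio of old over young became -0.17 in the Bcan/Isl1 subtype and 0.22 over endothelial-like cells. Leaving it out took away mostly old cells with a high Frzb level. The fall in the ratio was therefore built in, and it cannot show what the difference rests on. The part of smooth muscle RNA in its Frzb level was not tested.

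At 3100 UMIs per cell, Frzb was seen in 27.0% [24.7 to 29.3] of old and 20.9% [17.6 to 24.5] of young Bcan/Isl1 cells, and in 11.9% [8.88 to 15.6] of old and 6.79% [4.60 to 9.61] of young Coch/Adra2a cells. Old macrophage-like cells showed it in 5.45% [2.03 to 11.5] of cells. The 13 young macrophage-like cells held 17 Frzb UMIs in 6 cells, 105 CPM [61.4 to 169], a level as high as that of young Bcan/Isl1 cells. Of those UMIs, 94.1% lay in 5 cells. Without thinning the Bcan/Isl1 shares were 37.9% in old and 38.2% in young, at median depths of 4956 and 6447 UMIs. In fibroblast-like cells Frzb stood at 11.6 CPM [8.11 to 16.2] in old and 4.86 CPM [2.33 to 8.94] in young, a log2 ratio of 1.26 [0.22 to 2.44] from 35 and 10 UMIs. The old fibroblast level lay below the 26.1 CPM [15.9 to 40.3] of old macrophage-like cells, and endothelial markers in fibroblast-like cells summed to 1082 CPM in old and 555 CPM in young. The part of endothelial or free RNA in the fibroblast level was not tested.

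**Figure D2:**
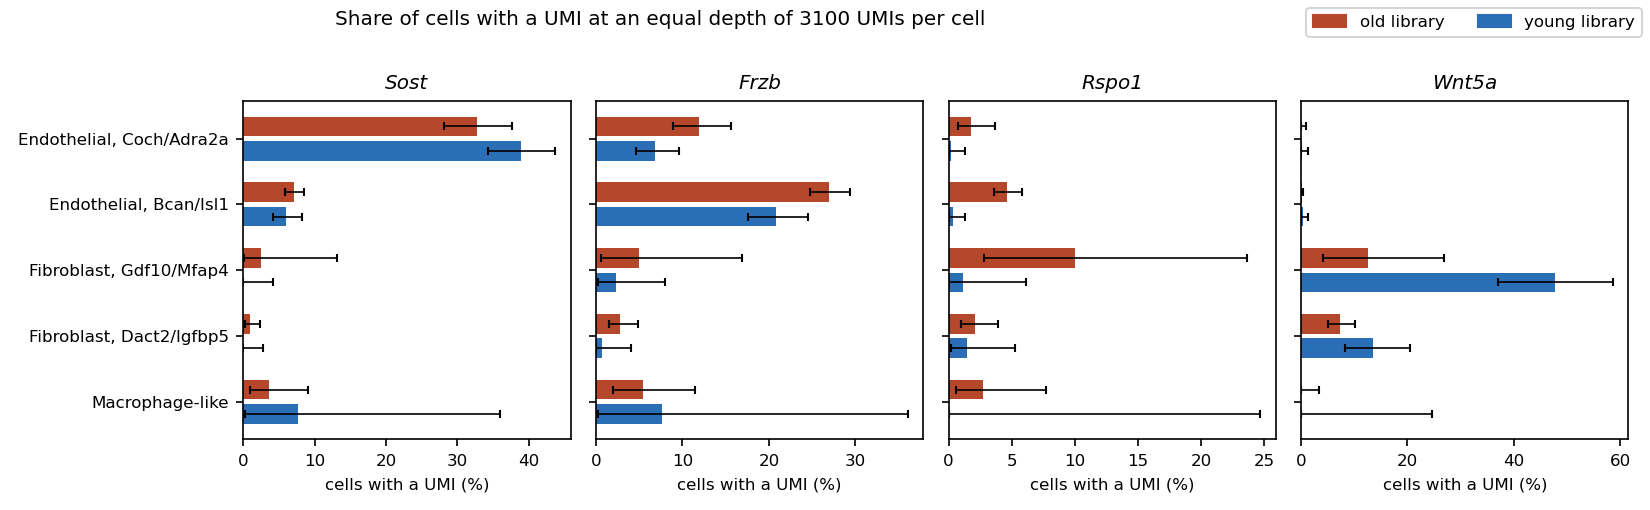
Share of cells with at least 1 UMI of Sost, Frzb, Rspo1 or Wnt5a (x axis, percent) after each cell was thinned to 3100 UMIs, by cell group (y axis) in the old library (red) and the young library (blue); lines are exact 95% binomial intervals. Wnt5a was seen in a smaller share of old than young cells in both fibroblast subtypes, with intervals that overlapped in Dact2/Igfbp5 cells. Rspo1 was seen in a larger share of old than young Bcan/Isl1 endothelial cells. The old Gdf10/Mfap4 bars rest on 40 cells, and the young macrophage-like bars on 13 cells.

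Sfrp1 (chromosome 8, 23411502 to 23449632, plus strand) also binds Wnt ligands, and it was detected in nearly every endothelial-like cell. At 3100 UMIs it was seen in 94.9% of old and 96.1% of young endothelial-like cells. The summed level was 1399 CPM [1380 to 1418] in old and 1625 CPM [1600 to 1650] in young, a log2 ratio of -0.22 [-0.25 to -0.19]. It was lower in old in both endothelial subtypes, with 1067 CPM in old and 1214 CPM in young Coch/Adra2a cells and 1487 CPM in old and 2033 CPM in young Bcan/Isl1 cells. The log2 ratio was -0.19 in Coch/Adra2a and -0.45 in Bcan/Isl1 cells, with intervals clear of 0. Other classes of the old library held 122 to 454 CPM, and old macrophage-like cells 266 CPM. The 13 young macrophage-like cells held 639 CPM, with 98.1% of the UMIs in 5 cells.

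In fibroblast-like cells Sfrp1 stood at 166 CPM [152 to 181] in old and 236 CPM [215 to 258] in young, a log2 ratio of -0.51. The subtypes did not show that difference: Gdf10/Mfap4 cells had 454 CPM in old and 495 CPM in young, a log2 ratio of -0.13 whose interval held 0, and Dact2/Igfbp5 cells had 122 CPM in old and 96.4 CPM in young, a log2 ratio of 0.34. The old Dact2/Igfbp5 level lay under that of old macrophage-like cells. With finer clusters the ratio in Gdf10/Mfap4 cells was 1.01.

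Sfrp2 (chromosome 3, 83766321 to 83774316, plus strand) is a frizzled-related protein made by fibroblasts in many tissues. Fibroblast-like cells held 88.2% of the Sfrp2 UMIs in old and 80.4% in young. Their level was 314 CPM [294 to 334] in old and 424 CPM [396 to 453] in young, a log2 ratio of -0.43. Gdf10/Mfap4 cells were higher in old, at 877 CPM [788 to 974] against 676 CPM [617 to 739] in young, a log2 ratio of 0.38 [0.17 to 0.58]. Dact2/Igfbp5 cells were lower in old, at 228 CPM [210 to 247] against 288 CPM [260 to 319] in young, a log2 ratio of -0.34. With finer clusters the ratio became 1.5 in Gdf10/Mfap4 and -0.05 in Dact2/Igfbp5 cells, and in old Gdf10/Mfap4 cells 5 cells held 45.7% of the UMIs.

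In endothelial-like cells Sfrp2 stood at 7.33 CPM [6.001 to 8.86] in old and 20.3 CPM [17.6 to 23.3] in young, a log2 ratio of -1.47 [-1.82 to -1.12]. It was lower in old in both subtypes, by log2 ratios of -1.73 in Coch/Adra2a and -1.65 in Bcan/Isl1 cells. Without the Acta2-rich cluster the Bcan/Isl1 ratio was -2.30. The old level was close to the 6.53 CPM [2.12 to 15.2] of old macrophage-like cells, and the young level lay within the interval of the young ones, 12.4 CPM [1.503 to 44.8] from 2 UMIs. Fibroblast markers in endothelial-like cells summed to 428 CPM in old and 458 CPM in young, all 8 detected in each. Their part in the Sfrp2 difference was not tested.

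Rspo1 (chromosome 4, 124986430 to 125009099, plus strand) encodes R-spondin 1. Endothelial-like cells held 178 Rspo1 UMIs in 145 cells of old, 12.3 CPM [10.6 to 14.3], and 11 UMIs in 10 cells of young, 1.09 CPM [0.54 to 1.95]. The log2 ratio was 3.5 [2.62 to 4.53], and no cell held more than 3 UMIs. The gene passed the minimum of 20 UMIs through the old library alone. Bcan/Isl1 cells had 14.1 CPM [12.0 to 16.4] in old and 1.97 CPM [0.94 to 3.62] in young, a log2 ratio of 2.84 [1.92 to 3.93]. Coch/Adra2a cells had 17 UMIs in old and 1 in young, which is too few for a ratio here. Fibroblast-like cells as a class did not show the difference, with 8.32 CPM [5.38 to 12.3] in old and 7.78 CPM [4.45 to 12.6] in young. That was 25 UMIs in old and 16 in young, a log2 ratio of 0.10. With old subtype levels weighted by the young mix of subtypes, the fibroblast ratio was 0.76.

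Among old Bcan/Isl1 cells Rspo1 was uneven. The larger cluster held 153 UMIs, 19.2 CPM [16.2 to 22.4], and the Acta2-rich cluster 6 UMIs, 1.81 CPM [0.66 to 3.94]. Rspo3 had the reverse pattern, with 1.13 CPM [0.52 to 2.14] in the larger cluster and 7.54 CPM [4.88 to 11.1] in the Acta2-rich one. Under 6 other settings Rspo1 lay between 0.89 and 1.96 CPM in the Acta2-rich cluster. In the other old Bcan/Isl1 clusters of 50 cells or more it lay between 18.9 and 19.6 CPM. At Leiden resolution 1.0 these were clusters of 753, 557 and 181 old cells, not 1 larger cluster. Settings that changed only the thinning could not move these levels, so they are not checks. Median depth over the cells of both libraries was 4342 UMIs per cell in the larger cluster and 6941 in the Acta2-rich one. The part of depth in these levels was not tested. At 3100 UMIs Rspo1 was seen in 4.62% [3.60 to 5.82] of old and 0.360% [0.0436 to 1.29] of young Bcan/Isl1 cells. Old macrophage-like cells showed it in 2.73% [0.57 to 7.76], from 3 of 110 cells, an interval that overlaps that of the old Bcan/Isl1 cells.

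Rspo3 (chromosome 10, 29452416 to 29535867, minus strand), an R-spondin known for a role in vessel growth in the mouse embryo, went the other way in the endothelial class. It had 40 UMIs in old, 2.77 CPM [1.98 to 3.77], and 68 UMIs in young, 6.73 CPM [5.23 to 8.53], a log2 ratio of -1.28 [-1.88 to -0.70]. Coch/Adra2a cells gave 5 UMIs in old and 40 in young, a log2 ratio of -2.27, and Bcan/Isl1 cells gave 35 in old and 28 in young, a log2 ratio of -0.85 [-1.61 to -0.08]. Since 25 of the 40 old UMIs lay in the Acta2-rich cluster, leaving it out moved the endothelial-like ratio to -2.25 and the Bcan/Isl1 ratio to -1.97. In fibroblast-like cells 12 UMIs were counted in old and 1 in young, all in Dact2/Igfbp5 cells. Gdf10/Mfap4 cells had 0 UMIs of Rspo3 in both libraries, and the limit of 3 counts that a count of 0 allows is 7.52 CPM in old and 4.17 CPM in young. A gene model with no known function, Gm20276, overlaps Rspo3 on the same strand, so reads of the pair could be split between them.

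Wnt5a (chromosome 14, 28504750 to 28527448, plus strand) is a ligand that acts mainly outside the beta-catenin branch, through receptors such as Ror2. It was a fibroblast gene here, with 92.6% of 95 UMIs in old and 96.2% of 239 UMIs in young in that class. Fibroblast-like cells stood at 29.3 CPM [23.5 to 36.1] in old and 112 CPM [97.8 to 127] in young, a log2 ratio of -1.93 [-2.30 to -1.57]. It was seen in 7.68% [5.43 to 10.5] of 469 old and 27.0% [21.3 to 33.4] of 222 young cells at 3100 UMIs. Endothelial-like cells had 6 UMIs in each library, and old macrophage-like cells had 1. Over 7 other settings the class ratio lay between -1.99 and -1.78. The settings that changed only the scaling used the same cells. Finer clusters, and clusters made without Wnt genes, again put 572 old and 239 young cells in the class. These settings are therefore not independent checks.

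By subtype, Wnt5a was 67.7 CPM [44.6 to 98.5] in old and 241 CPM [206 to 279] in young Gdf10/Mfap4 cells, a log2 ratio of -1.83 [-2.47 to -1.24]. In Dact2/Igfbp5 cells it was 23.4 CPM [17.9 to 30.1] in old and 42.6 CPM [32.3 to 55.2] in young, a log2 ratio of -0.86 [-1.41 to -0.32]. With finer clusters, which put 63 old and 170 young cells in the Gdf10/Mfap4 subtype, the ratio was -0.45 there and -0.15 in Dact2/Igfbp5 cells, so the difference within a subtype depended on where the boundary lay. Fibroblast markers moved with it: all 8 summed to 15755 CPM in old and 29584 CPM in young Gdf10/Mfap4 cells, and the subtype's own markers, Gdf10, Mfap4 and F3, to 750 CPM in old and 2495 CPM in young. Median depth in those cells was 3063 UMIs in old and 6398 in young. The part of these in the Wnt5a difference was not tested.

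**Figure D3:**
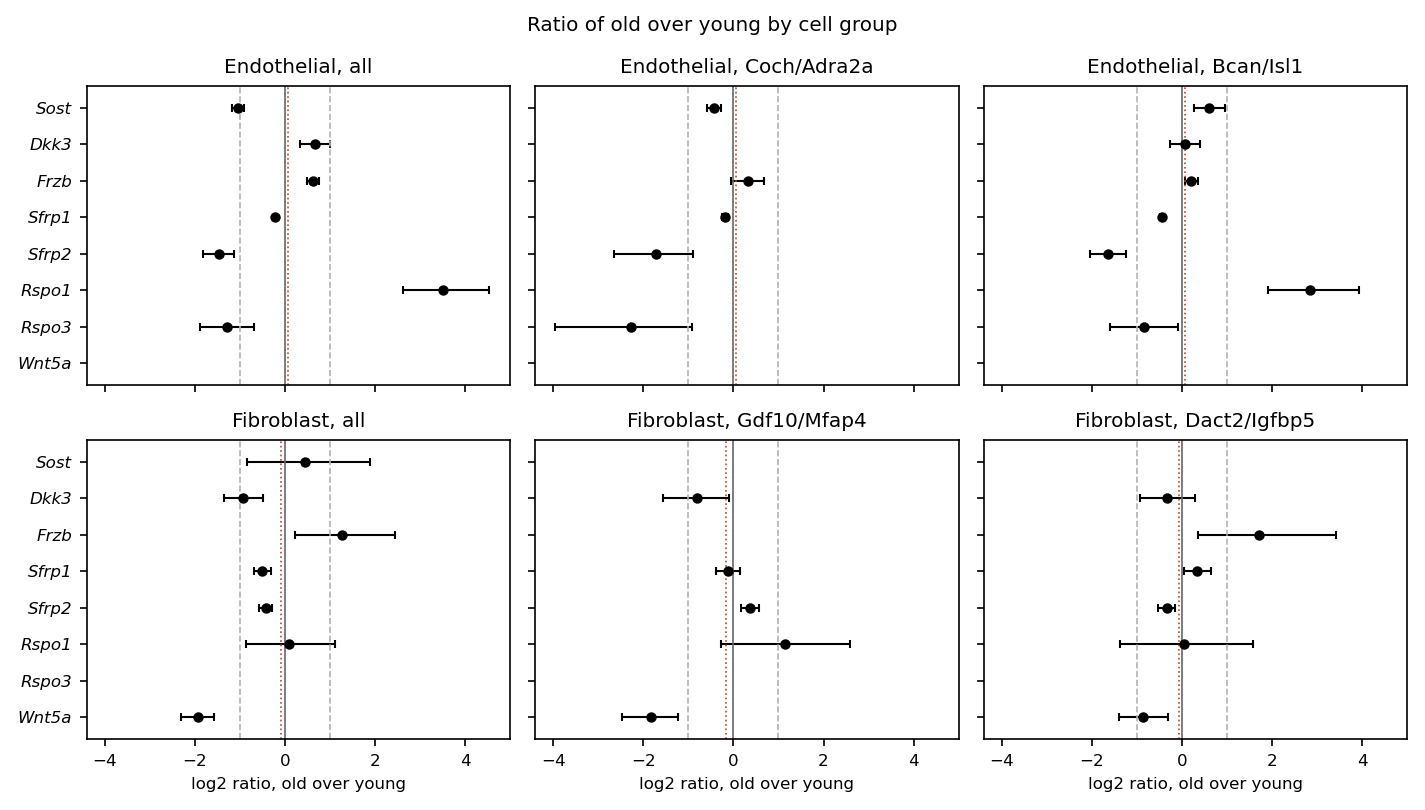
Log2 ratio of old over young (x axis) for each gene with at least 20 UMIs over both libraries (y axis), in endothelial-like cells and their subtypes (top) and in fibroblast-like cells and theirs (bottom). Points are ratios, black lines exact 95% intervals for counting error, dashed lines 2-fold, and the dotted red line the median over all genes; Rspo1 in endothelial-like cells lies right of the 2-fold line, and Wnt5a in fibroblast-like cells left of it.

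Within subtypes fewer genes passed 2-fold in the endothelial class. In Coch/Adra2a cells 5 of the 8 reached 20 UMIs, with 0 higher and 2 lower in old, Sfrp2 and Rspo3. Of 10636 genes, 5.33% passed, 2.37% higher and 2.96% lower. In Bcan/Isl1 cells 7 reached it, with Rspo1 higher and Sfrp2 lower in old, beside 6.67% of 11596 genes, 3.79% higher and 2.88% lower. In Gdf10/Mfap4 cells 5 reached it, with Rspo1 higher on 20 UMIs in all, an interval that held 0, and Wnt5a lower, beside 14.7% of 6184 genes, 3.54% higher and 11.2% lower. In Dact2/Igfbp5 cells 6 reached it, with Frzb higher in old from 32 and 5 UMIs and none lower, beside 7.80% of 9566 genes, 4.08% higher and 3.72% lower. Between subtypes of the same library, 4 of 7 genes in old and 3 of 6 in young differed past 2-fold between Coch/Adra2a and Bcan/Isl1 cells, against 5.25% and 4.97% of all genes. Between the fibroblast subtypes it was 5 of 6 in old and 4 of 4 in young, against 14.9% and 10.8%. These clusters were formed from the same cells and genes, so nothing is read from those counts.

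The mix of subtypes differed between the libraries, and class levels moved with it. Coch/Adra2a cells made up 20.9% of endothelial-like UMIs in old and 49.7% in young. When the old subtype levels were weighted by the young mix, Sost would stand at 84.6 CPM in old, against 105 CPM in young, and its log2 ratio moved to -0.31 from -1.04. Likewise Frzb moved to 0.23 and Dkk3 to 0.15, whereas Rspo1 at 3.18, Rspo3 at -1.51 and Sfrp2 at -1.68 stayed past 2-fold. They did so too under 4 other ways of filtering or clustering the cells, an alternative added after seeing the data, in which Sost lay between -0.51 and -0.24. In fibroblast-like cells, of which Gdf10/Mfap4 cells gave 13.3% of UMIs in old and 34.9% in young, Sfrp1 moved to 0.01 and Sfrp2 to 0.10. Dkk3 there moved to -0.61, Wnt5a to -1.52 and Rspo1 to 0.76 from 0.10. The fibroblast values depended on where the subtypes were divided. At Leiden resolution 1.0 the ratio under the young mix was -0.42 for Wnt5a, 1.00 for Sfrp1, 1.32 for Sfrp2, 0.39 for Dkk3 and 2.22 for Rspo1. With stricter cell filters it was -0.96 for Wnt5a. With 1 animal per age, a mix that differs with age and one that differs between animals or preparations cannot be told apart.

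**Figure D4:**
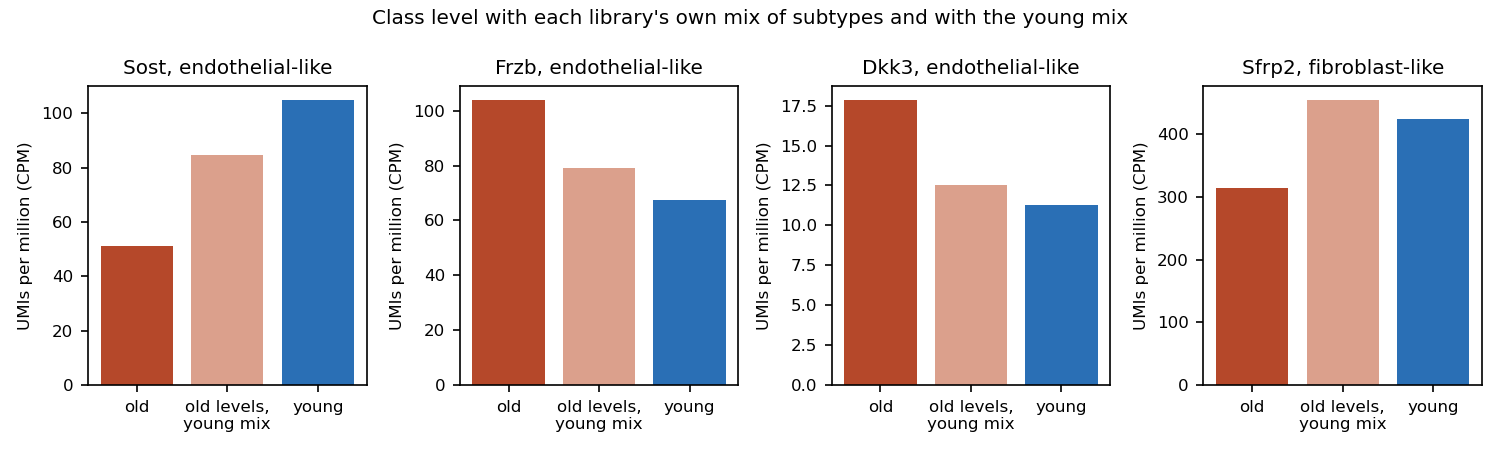
Level in CPM (y axis) of 4 genes in the old library (red), in the old library with subtype levels weighted by the young mix of subtypes (light red), and in the young library (blue). The old Sost level is 51.0 CPM as measured and 84.6 CPM under the young mix, beside 105 CPM in young, and the old Sfrp2 level in fibroblast-like cells lies above the young one under the young mix.

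Frzb was also counted in cells with and without a Sost UMI. At 3100 UMIs, Frzb was seen in 46 of the 230 old endothelial-like cells with a Sost UMI, an interval of 15.03 to 25.8%, and in 24.4% [22.3 to 26.6] of the 1627 without one. In young it was seen in 8.54% [5.06 to 13.3] of 199 cells with Sost and 16.3% [13.8 to 19.1] of 784 without. The intervals overlapped in old and did not in young. Wnt5a and Sfrp2 went the other way in fibroblast-like cells, where Sfrp2 was seen in 55.6% of 36 cells with Wnt5a and 38.1% of 433 without in old, and in 60.0% of 60 with and 38.3% of 162 without in young. Cells with and without a UMI of the first gene also differ in subtype, whose part was not tested.

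The receptors for these proteins were present in the endothelial class. Of a list of 96 other Wnt pathway genes, 95 were in the tables, and 61 reached 20 UMIs in endothelial-like cells, of which 3 were higher and 2 lower past 2-fold in old. That is 8.20%, beside the 7.08% of all genes, and the list's median log2 ratio was 0.01, where all genes had 0.07. The lower ones were Lrp4 at -1.30 [-2.02 to -0.59], from 28 UMIs in old and 48 in young, and Dkk2 at -1.44 [-2.78 to -0.19], from 9 and 17. Wnt16 was higher at 1.48 [0.15 to 3.06], from 24 UMIs in old and 6 in young, and the other higher ones, Ccnd1 and Nkd2, are given below. Fzd4 stood at 174 CPM in old and 186 CPM in young, and Fzd6 at 53.4 CPM in old and 60.6 CPM in young. The co-receptor Lrp6, a target of sclerostin, stood at 55.9 CPM in old and 61.3 CPM in young. The other such co-receptor, Lrp5, was lower, at 32.7 CPM in old and 59.7 CPM in young, a log2 ratio of -0.87 [-1.04 to -0.69]. It was lower in old in both subtypes, by -1.01 in Coch/Adra2a and -0.84 in Bcan/Isl1 cells. Next lowest among genes with at least 100 UMIs were Reck at -0.73 and Adgra2 at -0.64, which act together as co-receptors for Wnt7 ligands, and Fzd1 at -0.55. By subtype Adgra2 was at -0.21 in Coch/Adra2a and 0.08 in Bcan/Isl1 cells, with intervals that held 0. Reck was at -0.57 in each. Fzd1 was at -0.77 in Coch/Adra2a cells and -0.14 in Bcan/Isl1 cells, where its interval held 0. The part of the subtype mix in these class ratios was not tested. Highest were Ccnd1, a cyclin gene that Wnt signalling can induce, at 1.05 [0.86 to 1.24], the planar polarity gene Vangl2 at 0.95, Igfbp4, an insulin-like growth factor binding protein that can also block Wnt, at 0.62, and the antagonist Sfrp4 at 0.60.

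The R-spondin receptors and the usual feedback targets were sparse. Lgr4 had 52 UMIs in old and 49 in young endothelial-like cells, Lgr6 had 8 in old and 1 in young, and Lgr5 had 3 in old and 0 in young. Of the targets that report canonical signalling, Axin2 had 5 UMIs in old and 0 in young, Lef1 had 7 in old and 3 in young, Nkd1 had 49 in old and 34 in young, and Apcdd1 and Notum had 0 in both. Tcf7 had 21 in old and 20 in young, and the Dickkopf receptor Kremen1 had 97 in old and 87 in young. At these counts no difference could be detected in Axin2, Lef1, Apcdd1 or Notum. Of the canonical targets and feedback genes, 7 reached 20 UMIs, with a median log2 ratio of 0.75 where all genes had 0.07. Ccnd1 and Nkd2 were higher past 2-fold in old and none was lower, beside 3.82% of all genes higher and 3.26% lower. The list was chosen with earlier results of these data known, so nothing is read from that distance. Nkd2, a feedback inhibitor, had a ratio of 1.22 [-0.15 to 2.82] from 20 UMIs in old and 6 in young. The feedback genes Dact1 at 0.77 and Dact2 at 0.75 had intervals that held 0.

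In fibroblast-like cells 58 genes of the pathway list reached 20 UMIs, with a median log2 ratio of -0.33 where all genes had -0.10. Past 2-fold, 0 were higher and 9 lower in old, 15.5% beside 8.56% of all genes, 3.57% higher and 4.99% lower. With at least 100 UMIs, 3 passed 2-fold. As the list was chosen with earlier results of these data known, nothing is read from these distances. Receptors and co-receptors made up 7 of the 9, out of 16 measured. Among them were Reck at -1.29, Fzd1 at -1.19 and Fzd4 at -1.02, and Wnt9a, a ligand, followed at -0.94. The highest with at least 100 UMIs were the beta-catenin co-activator Bcl9l at 0.35 and the transcription factors Tcf7l1 at 0.25 and Tcf7l2 at 0.13, with Dact1 at 0.12, and their intervals all held 0. Ror1, a Wnt5a receptor, had 15 UMIs in old and 21 in young, a log2 ratio of -1.03, and Ror2 had 17 in old and 10 in young. The mix of fibroblast subtypes that moved Sfrp1 and Sfrp2 also differed beside this list, and its part was not tested.

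**Figure D5:**
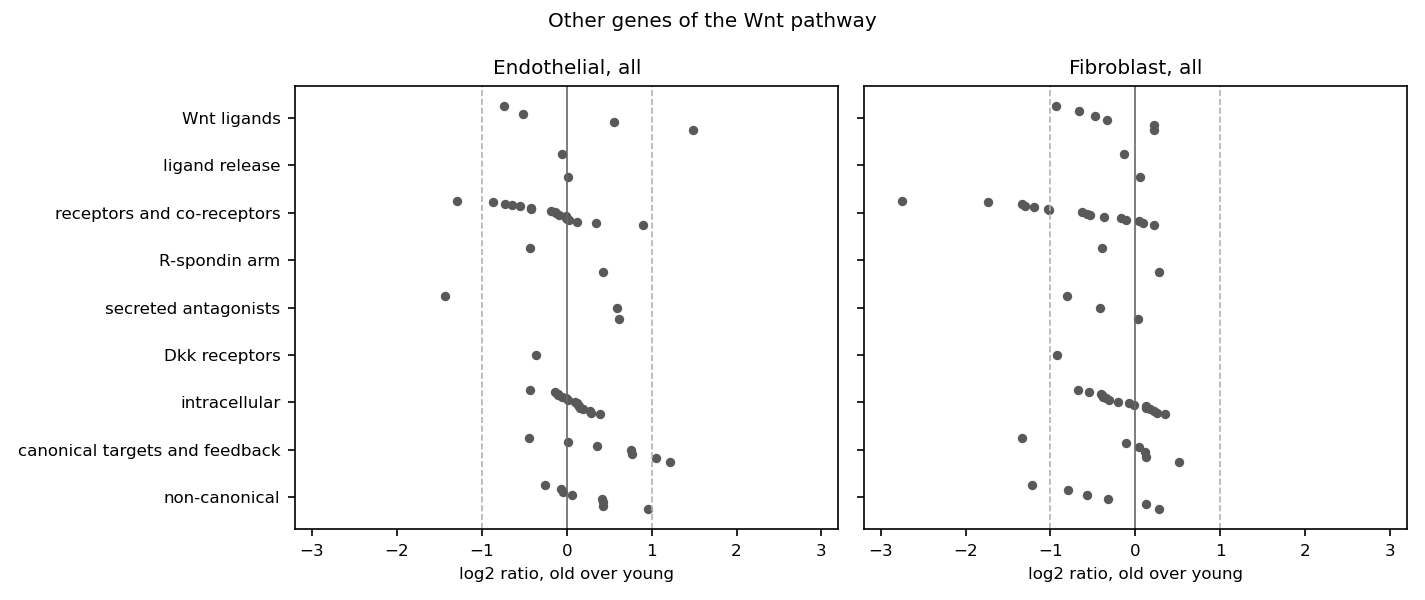
Log2 ratio of old over young (x axis) of the other Wnt pathway genes with at least 20 UMIs over both libraries, by role (y axis), in endothelial-like cells (left) and fibroblast-like cells (right). Each point is 1 gene, spread vertically within its role for legibility, and dashed lines mark 2-fold; in fibroblast-like cells 7 of 16 receptors lie left of the 2-fold line and no gene lies right of it.

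Genes whose levels followed each of the 8 were sought over 11 sums, each a class or subtype in 1 library with at least 20 cells, by Pearson's r of log2(CPM + 10) among 10867 genes. The sums come from only 2 libraries, so r is a description. Sost was followed most closely by Kank4 at 0.97, Krtap5-5 at 0.97 and Timp4 at 0.97. Frzb was followed by Kcnj2, a potassium channel gene, at 0.96, and Dkk3 by Mettl20 at 0.96 and Ror1 at 0.94. Sfrp2 was followed by Gpx8 at 0.98, and Wnt5a by Gas1 at 0.99, Gpnmb at 0.99 and the subtype marker F3 at 0.99. Rspo1 and Rspo3, which varied least, had lower maxima, Slc12a2 at 0.89 for Rspo1 and Secisbp2l at 0.90 for Rspo3. None of the 8 shared a 50-base stretch of the last 500 transcript bases with another annotated gene.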

How the data were processed

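Cells freed from the aortic endothelium of 1 old and 1 young C57BL6/J mouse were counted with a version 2 droplet kit that reads 3′ ends, per the labels' protocols. The deposited tables hold raw UMI counts in whole numbers for each barcode. The authors used Cell Ranger, whose version is not given in the sources used here, and GRCm38, per the submitters' processing notes. The 8 genes, the 96 pathway genes and the marker lists were chosen with earlier results of these data known.

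A cell needed 200 genes or more and no more than 10% mitochondrial UMIs, and 72 old and 1 young barcodes failed. Doublet calls (scrublet in scanpy 1.11.5) took out 6 old (0.180%) and 5 young (0.366%) barcodes, too few for a working filter. The remaining 3330 old and 1360 young cells were scaled to 10000 UMIs, log-transformed and clustered together with no batch term, on 2000 variable genes and 30 components with 15 neighbours and a Leiden resolution of 0.5. A cluster took the name of the class with the best detected markers, if 3 or more of them reached 25% of its cells. Subtypes were told apart by Coch and Adra2a against Bcan and Isl1, and by the fibroblast subtype markers. A ratio carries an exact conditional binomial interval for 2 Poisson counts, a level an exact Poisson interval and a share a Clopper-Pearson interval, all at 95%. Calls use 2-fold among genes with at least 20 UMIs. Cells were thinned to 3100 UMIs for shares, which left out 561 old and 101 young endothelial-like and 103 old and 17 young fibroblast-like cells. Named pathway genes are the 4 highest and 4 lowest with at least 100 UMIs and listed receptors and targets. The gene most like Sfrp1 is not reported here. Ror1, Ror2 and Nkd2, and in endothelial-like cells Dact1, Dact2, Lrp4, Dkk2 and Wnt16, fall outside that rule and were picked by their values. The ratio code was tested on simulated counts. Coordinates are those of GENCODE vM21. Software was Python 3.11.15 with matplotlib 3.10.9, pandas 2.3.3, igraph 0.11.9, scipy 1.17.1 and numpy 2.4.6. Alternatives covered the cell filter, clustering, doublet calls, scaling, summing over cells, thinning depth and call rule.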

Additional observations from a re-analysis of the deposited data

Results flagged for a closer look

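With 1 library per age, none of the differences below was tested. Dkk3 was higher in old endothelial-like cells, at a log2 ratio of 0.66, and lower in old fibroblast-like cells, at -0.92. Under the young mix of subtypes the endothelial-like ratio was 0.15, and it was 0.07 within Bcan/Isl1 cells. Sost was lower in old Coch/Adra2a endothelial cells, at -0.43, and higher in old Bcan/Isl1 endothelial cells, at 0.61. Sfrp2 was higher in old Gdf10/Mfap4 fibroblasts, at 0.38, and lower in old Dact2/Igfbp5 fibroblasts, at -0.34.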

How the results depend on the processing

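Of 305 recomputed single values, 268 moved by less than their counting interval, 35 moved further and 2 with an interval clear of 0 changed direction. Those were Dkk3 in Gdf10/Mfap4 fibroblasts, at 0.57 with Leiden resolution 1.0, and Frzb in Bcan/Isl1 cells, at -0.17 without the Acta2-rich cluster. Leaving out that cluster took away mostly old cells. Sfrp1 in Gdf10/Mfap4 fibroblasts, at -0.13 with an interval that held 0, was positive in 6 of 7 alternatives, between 0.05 and 1.01. The causes were not tested. Part of the 268 was fixed in advance, because the cluster levels of Frzb, Rspo1 and Rspo3 do not depend on the thinning depth. The counts of genes past 2-fold were 3 to 4 in endothelial-like cells, 2 in fibroblast-like cells and 7 to 8 over the subtypes. Of the pathway list, 1 gene in endothelial-like and 3 in fibroblast-like cells passed 2-fold with at least 100 UMIs, and 15 and 16 passed 1.5-fold. The shares of all genes under these rules were not computed, so nothing is read from these counts. Shares depend on the depth by construction. Thinned to 2000 UMIs, they were 18.8% of old and 15.7% of young Bcan/Isl1 cells for Frzb, 25.9% of old and 29.8% of young Coch/Adra2a cells for Sost, 2.80% of old Bcan/Isl1 cells for Rspo1 and 18.8% of young fibroblast-like cells for Wnt5a. Without thinning they were 37.9% of old and 38.2% of young for Frzb, 50.3% of old and 66.2% of young for Sost, 6.71% of old and 1.43% of young for Rspo1, and 13.1% of old and 44.4% of young for Wnt5a. The old Frzb share was 29.3% with the stricter cell filter and 21.0% without the Acta2-rich cluster. No paired analysis was possible because each age has 1 library. With 1 animal per age, age, animal and preparation cannot be told apart, and the old library is shallower per cell.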
